A study of Mus musculus with 6 samples.

Results

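The genes described here are 7 that encode secreted proteins, most of them known from ameloblasts of maturing enamel, and RP23-102H7.9, a locus without coding sequence inside one of them. They are 8 of the 46603 genes in the count tables, chosen by symbol: Klk4, Odam, Amtn, Gm1045 (called Odaph in current annotation), Gm17660, RP23-102H7.9, Csn3 and Sparcl1. The choice was made with their difference between knockout and wild type already known, so the values of that comparison are a description of these 6 libraries and carry no test. Transcripts were sequenced from enamel organ cells of mouse lower incisors. Mice with Stim1/2 knocked out (DKO) gave 3 libraries, numbered 1, 3 and 4, and wild-type mice (WT) gave 3, numbered 1, 2 and 3; all were of strain C57BL/6. The sources used here name neither the promoter or Cre line behind the deletion nor the age of the mice, and they do not say whether animals were pooled. STIM1 and STIM2 sense the calcium content of the endoplasmic reticulum and open the plasma membrane channels of store-operated calcium entry, the process that the study examined in ameloblasts.

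The rodent incisor grows throughout life, so 1 enamel organ holds ameloblasts of every stage in sequence. In the secretory stage ameloblasts lay down amelogenin, ameloblastin and enamelin. In the maturation stage they make the serine protease KLK4, which degrades that matrix, and build an atypical basal lamina on the enamel surface that contains ODAM, AMTN and SCPPPQ1. Most of these proteins belong to the secretory calcium-binding phosphoprotein (SCPP) family, which is thought to have arisen by duplication from Sparcl1. Of the genes described here Gm17660 stands beside Sparcl1, whereas Odam, Csn3, Amtn and Gm1045 lie elsewhere on chromosome 5.

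Stim1 and Stim2 were both lower in the knockout libraries. Stim1 had 107, 143 and 125 counts per 1e6 (CPM) in the DKO libraries, against 413, 492 and 362 CPM in the WT libraries. Stim2 had 105, 136 and 126 CPM in DKO and 229, 310 and 245 CPM in WT, so the groups overlapped for neither gene. The deleted parts are not given, so reads outside them may remain. Total counts ran from 18609759 to 22829411 per library. The labels do not say that replicates came from separate animals, so each p-value reflects only the spread among these libraries, which may in part be technical. Xist, the RNA of the inactive X chromosome, was above 100 CPM in DKO 1, WT 1 and WT 2 and near 0 in DKO 3, DKO 4 and WT 3, so each group held libraries of both kinds, and differences within each kind are given beside the pooled ones, each resting on 1 library of a group against 2 of the other.

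The starts of 4 genes are shown because letters of known binding sequences fell in them. Each line holds the 250 bases before the RefSeq start on GRCm38.p6, 5′ to 3′ on the gene's strand. Capitals mark TGTGGT or ACCACA, the core bound by RUNX factors, and CCAAT or ATTGG, the CCAAT box read on either strand. The windows are chr5:91987223-91987472 (plus strand) for Odaph, chr5:88375858-88376107 (plus strand) for Amtn, chr5:87884760-87885009 (plus strand) for Odam and chr5:104077609-104077858 (minus strand) for Gm17660.
Odaph: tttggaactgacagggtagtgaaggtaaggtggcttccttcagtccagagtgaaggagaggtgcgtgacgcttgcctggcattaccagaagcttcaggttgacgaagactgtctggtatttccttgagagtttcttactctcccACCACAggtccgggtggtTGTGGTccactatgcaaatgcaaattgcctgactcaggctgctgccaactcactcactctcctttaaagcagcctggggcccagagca
Amtn: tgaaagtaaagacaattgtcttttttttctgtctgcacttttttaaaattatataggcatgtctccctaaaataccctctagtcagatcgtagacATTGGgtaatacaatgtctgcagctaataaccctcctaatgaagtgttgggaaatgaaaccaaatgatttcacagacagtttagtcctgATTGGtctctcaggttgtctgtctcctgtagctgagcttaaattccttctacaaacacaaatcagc
Odam: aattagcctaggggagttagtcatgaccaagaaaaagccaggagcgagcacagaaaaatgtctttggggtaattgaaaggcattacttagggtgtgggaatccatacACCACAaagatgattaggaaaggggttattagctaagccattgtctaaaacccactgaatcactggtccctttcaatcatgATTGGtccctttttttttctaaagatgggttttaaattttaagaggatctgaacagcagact
Gm17660: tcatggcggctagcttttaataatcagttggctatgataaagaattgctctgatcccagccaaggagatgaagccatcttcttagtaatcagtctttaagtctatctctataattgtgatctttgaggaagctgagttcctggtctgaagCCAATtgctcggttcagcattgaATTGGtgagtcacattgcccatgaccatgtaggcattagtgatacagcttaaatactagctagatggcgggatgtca
The Odaph window held 2 RUNX matches, 106 and 88 bases before the start, and no CCAAT match. At least 1 RUNX match was present in 14% of the 32851 promoters of the same length, and 2 or more in 1.27%. Odam held 1 RUNX match, 143 bases before its start, and 1 CCAAT match 62 bases before it. Amtn held CCAAT matches 155 and 66 bases before the start, and Gm17660 held them 100 and 77 bases before. At least 1 CCAAT match was present in 33.8% of all promoters, and 2 or more in 10.1%. GGAAAA or TTTTCC, the core bound by NFAT factors, occurred in none of the 5 promoters that could be matched (these 4 and Klk4), and in 20.4% of all promoters. The Klk4 window, chr7:43880910-43881159, held none of the 3 motifs. No RUNX match overlapped a CCAAT match. A match is a run of letters, not evidence of binding.

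In the difference between DKO and WT the genes went both ways. The log2 fold change was above 0 for 4 of the 8 (Klk4, Amtn, Gm1045 and Csn3) and below 0 for the other 4 (Odam, Gm17660, RP23-102H7.9 and Sparcl1), with a median of 0.03 beside -0.01 over all 14721 genes tested. All 8 passed the filter on low counts. With edgeR's adjusted p below 0.05, 2 of the 8 were called, Gm1045 higher and RP23-102H7.9 lower. Over all genes tested 1.04% were called, 0.734% higher and 0.306% lower. An unadjusted p below 0.05 in the same edgeR test was reached by 2656 of the 14721, the count to set beside those of the lists below. The CPM values of the groups did not overlap for 7 of the 8, with 3 higher and 4 lower in DKO, beside 23.3% of all genes (11.4% higher and 11.8% lower). A size of at least 1 on the log2 scale was reached by 4 of the 8 and by 3.98% of all genes. These counts follow from how the genes were chosen and are not read further. In tissue of this kind, fewer cells of a type and less RNA per cell cannot be told apart.

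**Figure D1:**
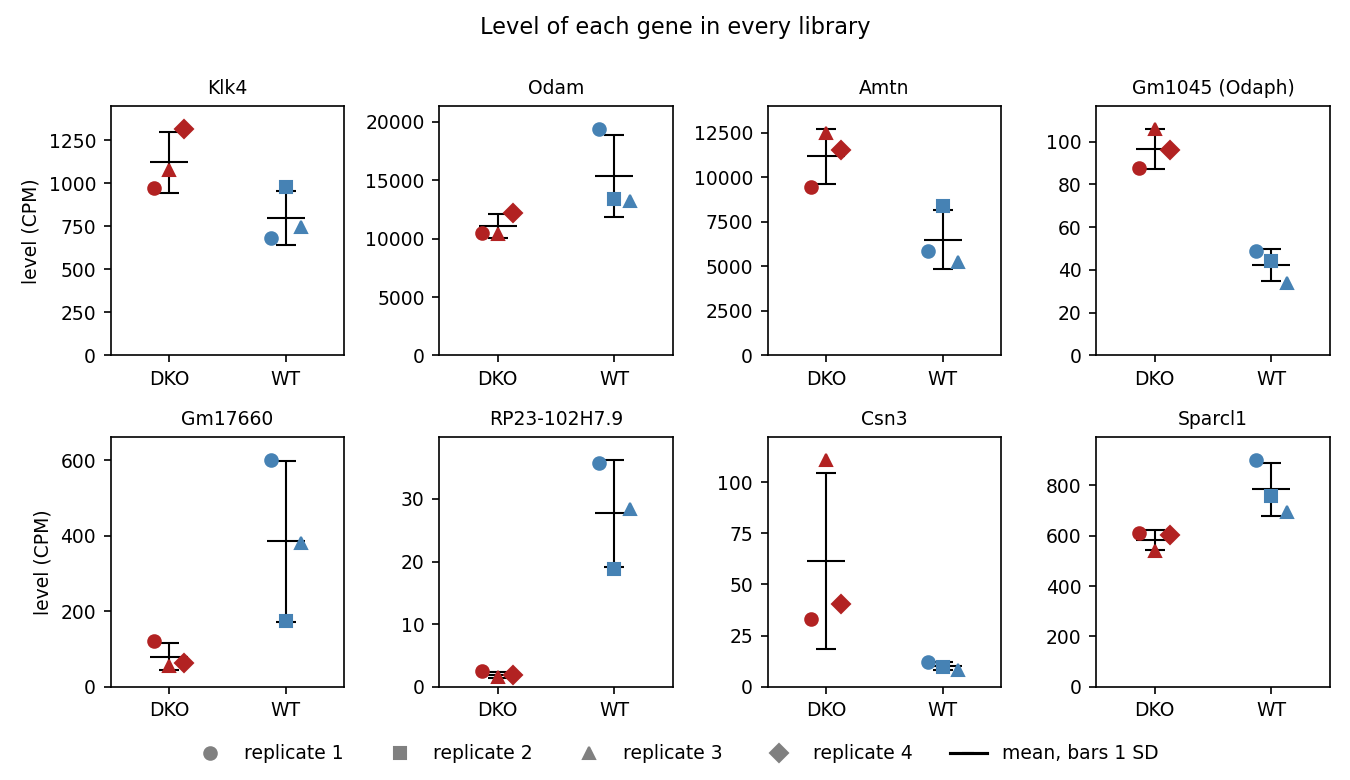
Each panel plots the level of 1 gene in counts per 1e6 (CPM, linear axis from 0) in the 3 DKO libraries (red, left) and the 3 WT libraries (blue, right); the horizontal bar is the mean and the whiskers 1 SD. The groups overlap for Klk4 alone: Amtn, Gm1045 and Csn3 lie higher in DKO and Odam, Gm17660, RP23-102H7.9 and Sparcl1 lower.

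Klk4 (ENSMUSG00000006948, chr7:43881160-43885804, plus strand) encodes the protease of the maturation stage. It had 974, 1076 and 1318 CPM in DKO libraries 1, 3 and 4, against 681, 979 and 746 CPM in WT libraries 1, 2 and 3. The values overlapped, since WT 2 lay just above DKO 1. The means were 1123 ± 177 CPM in DKO and 802 ± 157 CPM in WT (SD, n = 3 each), a log2 fold change of 0.49 (SE 0.17). Within the libraries of high Xist it was 0.23 and within those of low Xist 0.68. Set against Mmp20, which encodes the protease of the secretory stage, the Klk4 count was 245, 233 and 458% of the Mmp20 count in DKO and 292, 197 and 227% in WT, so this ratio also overlapped.

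Amtn (ENSMUSG00000029282, chr5:88376108-88385916, plus strand) encodes amelotin, a protein of the basal lamina that promotes mineral formation. Its level was 9474, 12511 and 11544 CPM in DKO 1, 3 and 4, against 5875, 8389 and 5227 CPM in WT 1, 2 and 3. All DKO libraries lay above all WT libraries. The means were 11176 ± 1551 CPM in DKO and 6497 ± 1670 CPM in WT (SD, n = 3 each), 1.72-fold higher, with a log2 fold change of 0.78 (SE 0.23). The difference was 0.41 within the libraries of high Xist and 1.20 within those of low Xist. By mean CPM Amtn was the gene of rank 3 in DKO and rank 5 in WT.

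Odam (ENSMUSG00000009580, chr5:87885029-87894174, plus strand) encodes a further protein of the basal lamina, also made by the junctional epithelium that seals the gum to the tooth. It had 10487, 10429 and 12231 CPM in DKO 1, 3 and 4, against 19410, 13433 and 13209 CPM in WT 1, 2 and 3. The DKO libraries lay below the WT libraries, and WT 1 stood well above the other two of its group. The means were 11049 ± 1024 CPM in DKO and 15351 ± 3517 CPM in WT (SD, n = 3 each), and the log2 fold change was -0.47 (SE 0.21), with -0.65 in libraries of high Xist and -0.22 in those of low Xist. Without WT 1 the log2 fold change was -0.27.

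Amtn and Odam thus differed in opposite directions although both encode parts of the same lamina. Within a library, which needs no scaling between libraries, the Amtn count was 90.3, 120 and 94.4% of the Odam count in DKO 1, 3 and 4, against 30.3, 62.4 and 39.6% in WT 1, 2 and 3. Each DKO ratio exceeded each WT ratio, with means of 102 ± 16.1% in DKO and 44.1 ± 16.6% in WT (SD, n = 3 each). By FPKM, the fragments of a gene per kilobase of its transcript after scaling for depth, Amtn averaged 12011 ± 1361 in DKO and 7001 ± 1722 in WT, and Odam averaged 9589 ± 1038 in DKO and 13461 ± 3153 in WT (SD, n = 3 each). Amtn was thus the higher of the pair in the means of DKO and the lower in those of WT. Relative to Ambn, the secretory-stage gene of ameloblastin, Odam stood at 16.8, 11.6 and 18.1% in DKO and 51.7, 20.1 and 26.8% in WT, without overlap. The ratio of Amtn to Ambn did overlap, at 15.2, 13.9 and 17.1% in DKO and 15.6, 12.5 and 10.6% in WT. The ratio of Klk4 to Amtn was lower in every DKO library, at 10.3, 8.60 and 11.4%, than in any WT library, at 11.6, 11.7 and 14.3%, though DKO 4 and WT 1 were close.

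Gm1045 (ENSMUSG00000096035, chr5:91987475-91995320, plus strand), or Odaph, encodes a small phosphoprotein whose loss causes amelogenesis imperfecta in humans. It had 87.5, 106 and 96.2 CPM in DKO 1, 3 and 4, against 48.7, 44.1 and 34.0 CPM in WT 1, 2 and 3. The groups were well apart. The coefficient of variation was 9.59% in DKO and 17.7% in WT, a spread that 40.5% of genes with a mean of at least 50 counts reached or passed in DKO and 22.3% in WT. The means were 96.6 ± 9.26 CPM in DKO and 42.3 ± 7.48 CPM in WT (SD, n = 3 each), with a log2 fold change of 1.19 (SE 0.14). It was 0.92 within the libraries of high Xist and 1.57 within those of low Xist. Gm1045 exceeded Amtn in its difference: its count was 0.924, 0.848 and 0.834% of the Amtn count in DKO and 0.828, 0.526 and 0.651% in WT, with the lowest DKO value just above the highest WT value. Over the fits without 1 library its log2 fold change stayed between 1.06 and 1.31, but edgeR no longer called it without DKO 3 or without DKO 4.

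**Figure D2:**
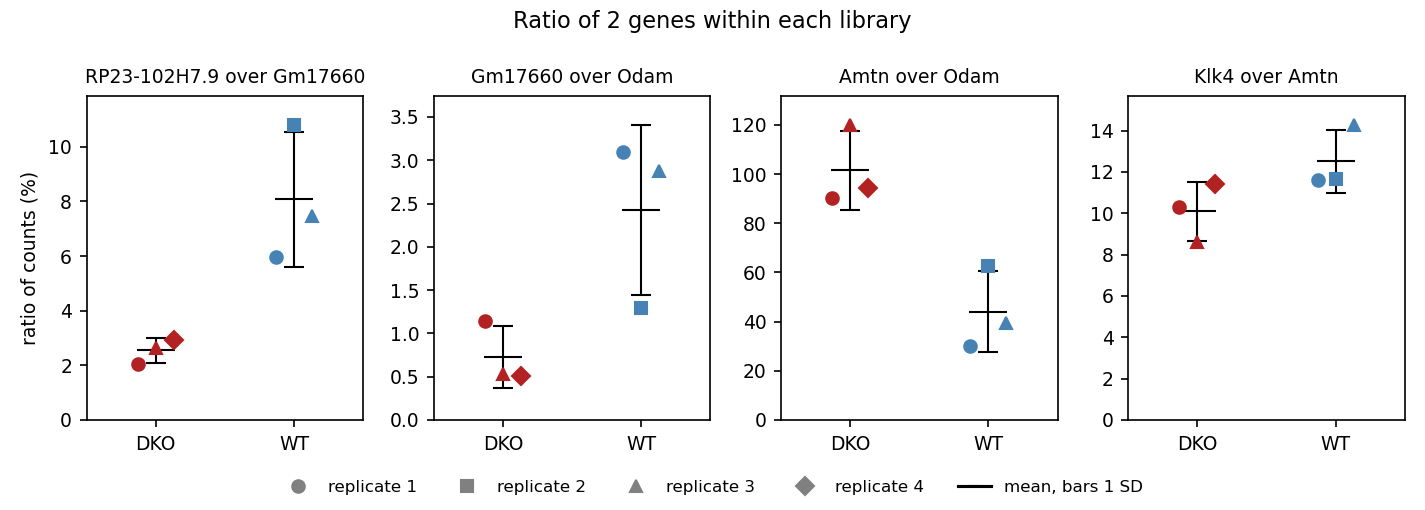
Each panel plots the count of 1 gene as a percentage of the count of another in the same library (linear axis from 0), for the 3 DKO libraries (red, left) and the 3 WT libraries (blue, right), with the mean and 1 SD. The ratio of Amtn to Odam is higher in DKO, and the ratios of RP23-102H7.9 to Gm17660, of Gm17660 to Odam and of Klk4 to Amtn are lower.

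Gm17660 (ENSMUSG00000091034, chr5:104070064-104077608, minus strand) is listed in RefSeq with the synonym Scpppq1, an SCPP gene rich in proline and glutamine whose protein lies in the basal lamina and the junctional epithelium. It had 120, 55.7 and 61.8 CPM in DKO 1, 3 and 4, against 601, 174 and 380 CPM in WT 1, 2 and 3. The groups did not overlap, although WT 2 was closer to DKO 1 than to WT 1. The means were 79.2 ± 35.5 CPM in DKO and 385 ± 214 CPM in WT (SD, n = 3 each), 4.86-fold lower in DKO, with a log2 fold change of -2.28 (SE 0.47). Within the libraries of high Xist the difference was -1.69 and within those of low Xist -2.69. No other gene of the set varied as much among WT libraries, with a coefficient of variation of 55.5%, a spread that 1.48% of genes with a mean of at least 50 counts reached or passed. Its FPKM values were 379 ± 179 in DKO and 1739 ± 947 in WT (SD, n = 3 each), the rank of 199 among all genes by mean FPKM in DKO and of 35 in WT. Relative to Odam its count was 1.15, 0.534 and 0.506% in DKO and 3.10, 1.29 and 2.88% in WT, so the difference in Gm17660 exceeded that in Odam, by a margin that was narrow between DKO 1 and WT 2.

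RP23-102H7.9 (ENSMUSG00000105261, chr5:104070064-104072325, minus strand) had the largest difference of the 8. It is a single-exon locus that GENCODE vM21 names Gm43333 and holds in its class for loci awaiting experimental evidence, with no coding sequence. Its counts were 49, 29 and 34 in DKO 1, 3 and 4, against 844, 387 and 653 in WT 1, 2 and 3. In CPM these were 2.46, 1.48 and 1.82 in DKO and 35.8, 18.8 and 28.5 in WT, so the lowest WT library stood far above the highest DKO library. The means were 1.92 ± 0.498 CPM in DKO and 27.7 ± 8.55 CPM in WT (SD, n = 3 each), 14.4-fold lower in DKO, with a log2 fold change of -3.85 (SE 0.29). It was -3.47 within the libraries of high Xist and -4.11 within those of low Xist.

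The 2 loci overlap on the same strand. RP23-102H7.9 spans 2262 bases at the 3′ end of Gm17660, introns included, and 231 bases are exon in both, which is 41% of the 564 exon bases of Gm17660 and 10.2% of those of RP23-102H7.9. The sources used here do not give the counting settings, so how reads in the shared bases were assigned is uncertain for both genes, and reads from unspliced Gm17660 RNA cannot be told apart from RP23-102H7.9. The RP23-102H7.9 count was 2.05, 2.65 and 2.94% of the Gm17660 count in DKO and 5.96, 10.8 and 7.49% in WT. The ratio was lower in every DKO library than in any WT library, so the pair did not differ by 1 common factor. In the deposited FPKM values, which come from another estimate, the same ratio was 0.264, 0.313 and 0.314% in DKO and 0.720, 1.31 and 1.004% in WT, again without overlap.

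**Figure D3:**
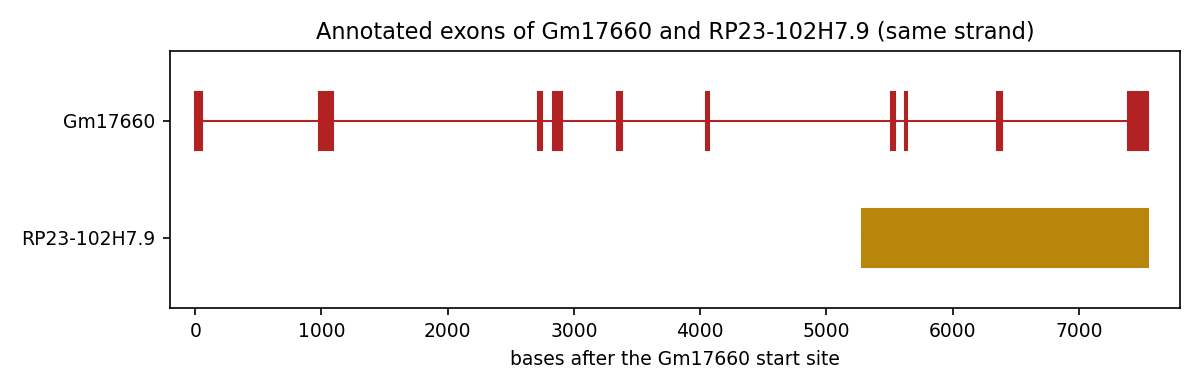
Annotated exons (boxes) of Gm17660 and of RP23-102H7.9 along the same strand, in bases after the Gm17660 start site, with exons of all transcripts merged. RP23-102H7.9 is 1 block that covers the last 4 of the 10 exon blocks of Gm17660 and the introns between them.

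Csn3 (ENSMUSG00000001622, chr5:87925579-87932665, plus strand) encodes kappa-casein, the milk protein that stabilises casein micelles, and lies next to Odam in the SCPP cluster. It had 33.2, 111 and 40.5 CPM in DKO 1, 3 and 4, against 12.3, 9.69 and 8.15 CPM in WT 1, 2 and 3. All DKO libraries lay above all WT libraries, and DKO 3 stood far above the other two of its group. The means were 61.5 ± 42.9 CPM in DKO and 10.04 ± 2.08 CPM in WT (SD, n = 3 each), 6.13-fold higher, with a log2 fold change of 2.61 (SE 0.46) that was 1.87 without DKO 3. Within the libraries of high Xist it was 1.59 and within those of low Xist 3.22. The coefficient of variation among DKO libraries, 69.8%, was reached or passed by 0.576% of genes. The other caseins Csn1s1, Csn2, Csn1s2a and Csn1s2b had 0 counts in all 6 libraries, as did the milk genes Wap and Lalba, and the summed level of the 17 markers of salivary, lacrimal and mammary gland found in the files was 0.459 to 3.71 CPM in DKO and 0.933 to 9.01 CPM in WT. By FPKM Csn3 averaged 68.2 ± 45.6 in DKO and 11.3 ± 2.35 in WT (SD, n = 3 each), in both groups far below Odam.

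Sparcl1 (ENSMUSG00000029309, chr5:104079111-104113733, minus strand) encodes a secreted matricellular glycoprotein related to osteonectin and ends 1502 bases before the Gm17660 start. It had 610, 539 and 603 CPM in DKO 1, 3 and 4, against 902, 759 and 696 CPM in WT 1, 2 and 3. The groups did not overlap. The means were 584 ± 39.0 CPM in DKO and 785 ± 105 CPM in WT (SD, n = 3 each), a log2 fold change of -0.43 (SE 0.12), with -0.45 in libraries of high Xist and -0.29 in those of low Xist. Its difference was thus in the direction of its neighbour Gm17660 and much smaller: the Gm17660 count was 19.7, 10.3 and 10.3% of the Sparcl1 count in DKO and 66.6, 22.9 and 54.6% in WT. Sparcl1 is also made by vessel walls. The markers of endothelium summed to 510 to 543 CPM in DKO and 351 to 471 CPM in WT, with 11 of 12 above 0 in log2 fold change, and those of mural cells, the pericytes and smooth muscle around vessels, to 877 to 944 CPM in DKO and 549 to 773 CPM in WT, with 8 of 10 above 0. edgeR called 1 of the 12 endothelial markers, higher, with 5 at an unadjusted p below 0.05 and 3 called by DESeq2. It called 0 of the 10 mural markers, with 4 at an unadjusted p below 0.05 and 2 called by DESeq2. The part of vessel content in the level of Sparcl1 was not tested.

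**Figure D4:**
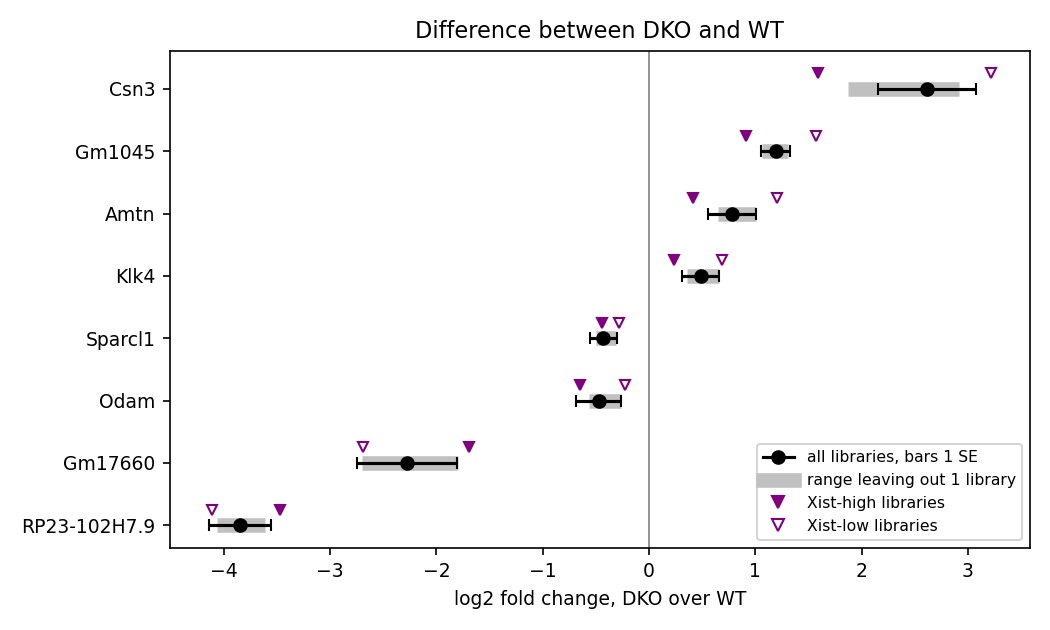
The horizontal axis is the log2 fold change of DKO over WT; black points with whiskers give the estimate and 1 SE from all 6 libraries, grey bars the range over the 6 fits that each leave out 1 library, and triangles the difference within libraries of high and of low Xist. Every estimate, range and triangle of a gene lies on the same side of 0, and for Csn3 the range extends down to 1.87.

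Libraries of 1 group differed among themselves in the mix of these RNAs. Among WT libraries, WT 1 was highest in Odam, Gm1045, Gm17660, RP23-102H7.9, Csn3 and Sparcl1 and lowest in Klk4, whereas WT 2 was highest in Klk4 and Amtn and lowest in Gm17660 and RP23-102H7.9. Among DKO libraries, DKO 3 was highest in Amtn, Gm1045 and Csn3 and lowest in Odam, Gm17660, RP23-102H7.9 and Sparcl1. Together the 8 genes took 2.22, 2.30 and 2.60% of all counts in DKO 1, 3 and 4, and 2.85, 2.32 and 2.11% in WT 1, 2 and 3, most of it Odam and Amtn, and these shares overlapped. The 14 genes of the secretory stage summed to 118160, 182760 and 118130 CPM in DKO 1, 3 and 4, and to 71171, 140760 and 110720 CPM in WT 1, 2 and 3, so DKO 3 was highest and WT 1 lowest in secretory-stage RNA. The part of this mix in the differences above was not tested.

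Junctional epithelium also makes Gm17660 and Odam, so markers of the epithelium beside the tooth are given with them. The 15 markers of oral and junctional keratinocytes found in the files summed to 146, 99.9 and 122 CPM in DKO 1, 3 and 4, and to 488, 284 and 445 CPM in WT 1, 2 and 3. The order of the 6 libraries by this sum, from the lowest DKO 3, DKO 4, DKO 1, WT 2, WT 3 and WT 1, was also their order by Gm17660, but not by Odam, which ran DKO 3, DKO 1, DKO 4, WT 3, WT 2 and WT 1. Most of the sum was Krt6a, a keratin of oral and of stressed epithelium, at 109, 60.6 and 85.6 CPM in DKO and 418, 230 and 336 CPM in WT (log2 fold change -1.95, SE 0.27, edgeR adjusted p = 0.0216). Krt6a, like the other keratins of this list and Dsp below, is named after its values were seen. The call of Krt6a ended without DKO 3, DKO 4 or WT 3 (adjusted p of 0.0770 to 0.114). Krt16 and Krt10 were also lower in DKO without overlap (log2 fold change -1.52 and -1.30). Krt6b was lower with overlap (-2.20), and Krt76 was above 0 (0.30). Krt4 and Krt13 were lower in their means too, but differed in their order among WT libraries. Krt4 had 0.803, 0.662 and 0.749 CPM in DKO 1, 3 and 4, and 0.764, 5.28 and 17.2 CPM in WT 1, 2 and 3. Krt13 had 0.401, 0.561 and 1.50 CPM in DKO and 0.339, 5.86 and 10.4 CPM in WT. Both were thus lowest among WT libraries in WT 1, the library highest in Gm17660. Of the 9 markers tested 8 had a log2 fold change below 0, with a median of -1.52, and edgeR called 1 lower and 0 higher, with 6 at an unadjusted p below 0.05 and 4 called by DESeq2. Markers of dental epithelium summed to 10471 to 11016 CPM in DKO and 13022 to 15460 CPM in WT, with 11 of 12 below 0 and 2 called lower, among them the desmosome gene Dsp, whose call ended without any 1 library except WT 2 (adjusted p of 0.0641 to 0.184). The part of these cells in the levels of Gm17660 and Odam was not tested.

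No other SCPP gene was called in the fit reported here. Of the 16 other SCPP genes in the files 7 could be tested, and edgeR called 0 of them, with 1 at an unadjusted p below 0.05 and 0 called by DESeq2. All 7 had a log2 fold change above 0, with a median of 0.24. Ambn averaged 73354 ± 14704 CPM in DKO and 51246 ± 14774 CPM in WT, with a log2 fold change of 0.52 with an SE of 0.30 (edgeR adjusted p = 0.418). Amelx, the amelogenin gene, averaged 57654 ± 20425 CPM in DKO and 48665 ± 17901 CPM in WT (log2 fold change 0.24, SE 0.38, edgeR adjusted p = 0.784). Enam, for enamelin, averaged 6584 ± 2535 CPM in DKO and 5860 ± 2474 CPM in WT (log2 fold change 0.17, SE 0.38, edgeR adjusted p = 0.855). For all 3 the groups overlapped. Ibsp, for bone sialoprotein, had 186, 41.1 and 54.7 CPM in DKO 1, 3 and 4, and 25.2, 19.0 and 34.2 CPM in WT 1, 2 and 3, with a log2 fold change of 1.84 with an SE of 0.55 (edgeR adjusted p = 0.155); it is named after its values were seen. Without the filter on low counts edgeR called Ibsp, and with the replicate number as a block it called Dspp, for dentin sialophosphoprotein. Of the SCPP genes in the files 6 had 0 counts in every library: the 4 other caseins, Smr2 and 2310003L06Rik.

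In the SPARC family, to which Sparcl1 belongs, Smoc1 rose. Smoc1, for a calcium-binding protein of basement membranes, had 19.0, 29.9 and 20.0 CPM in DKO 1, 3 and 4, against 5.43, 5.48 and 7.28 CPM in WT 1, 2 and 3. Its log2 fold change was 1.92 with an SE of 0.21 (edgeR adjusted p = 0.0135), and the call ended without DKO 4 (adjusted p = 0.0591). It was the only 1 of the 6 tested members of the family to be called by edgeR, and DESeq2 called 2. All 6 had a log2 fold change above 0, the reverse of Sparcl1, with a median of 0.32. Sparc, for osteonectin, averaged 1716 ± 303 CPM in DKO and 1396 ± 209 CPM in WT (log2 fold change 0.30, SE 0.17, edgeR adjusted p = 0.412). Fstl1 averaged 486 ± 65.1 CPM in DKO and 383 ± 23.1 CPM in WT, and Smoc2 averaged 381 ± 65.2 CPM in DKO and 226 ± 32.7 CPM in WT (edgeR adjusted p of 0.198 and 0.0692).

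Klk4 was the 1 abundant kallikrein. Of the 26 others 2 could be tested, Klk8 and Klk10, with log2 fold changes of -0.07 (SE 0.34) and -0.08 (SE 0.43). edgeR called 0 of them, with 0 at an unadjusted p below 0.05 and 0 called by DESeq2. The 26 together summed to 7.06 to 11.5 CPM in DKO and 6.15 to 14.6 CPM in WT, and 8 of them had 0 counts in every library. Of the 14 genes of the secretory stage edgeR called 0, with 2 at an unadjusted p below 0.05 and 1 called by DESeq2. Of these, 12 had a log2 fold change above 0, and the median was 0.15.

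Among partners of the basal lamina, 2 linkers that tie keratin filaments to it fell. Dst, for dystonin, averaged 102 ± 6.63 CPM in DKO and 178 ± 12.6 CPM in WT (SD, n = 3 each; log2 fold change -0.80, SE 0.08, edgeR adjusted p = 0.0110). Plec, for plectin, averaged 289 ± 19.1 CPM in DKO and 486 ± 61.8 CPM in WT (SD, n = 3 each; log2 fold change -0.75, SE 0.12, edgeR adjusted p = 0.0380). They were the 2 called of the 11 tested, and 0 were called higher. The median was -0.01, with 5 above 0 and 6 below, and DESeq2 called 5. Markers of dental epithelium were also lower in sum, as given above. The part of epithelial content in the levels of Dst and Plec was not tested. The call of Dst ended without DKO 3 or without DKO 4 (adjusted p of 0.0573 and 0.0729), and that of Plec without any 1 library except WT 2 (0.0815 to 0.132). Lamb3 and Lama3, which encode laminin chains of this lamina, were not called by edgeR, though Lamb3 was among those called by DESeq2. Lamb3 averaged 2044 ± 323 CPM in DKO and 1436 ± 139 CPM in WT, without overlap, and Lama3 averaged 1420 ± 357 CPM in DKO and 1319 ± 257 CPM in WT, with overlap, at edgeR adjusted p of 0.153 and 0.833.

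Among 23 genes of ion transport in maturation and of enamel disease, edgeR called Car6 alone, and it was higher. An unadjusted p below 0.05 was reached by 11, beside 2656 of all 14721 genes tested, and DESeq2 called 7. Car6, a secreted carbonic anhydrase, had 541, 589 and 573 CPM in DKO 1, 3 and 4, against 340, 379 and 390 CPM in WT 1, 2 and 3 (log2 fold change 0.62, SE 0.10, edgeR adjusted p = 0.0351); the call ended without any 1 library except WT 2 (adjusted p of 0.0719 to 0.150). Of the 23, 15 had a log2 fold change above 0, with a median of 0.23. Alpl, for tissue-nonspecific alkaline phosphatase, averaged 2635 ± 277 CPM in DKO and 1872 ± 521 CPM in WT (edgeR adjusted p = 0.265). Slc24a4, for the potassium-dependent sodium-calcium exchanger of maturation ameloblasts, averaged 1153 ± 215 CPM in DKO and 828 ± 200 CPM in WT (edgeR adjusted p = 0.276). Slc26a4, for the anion exchanger pendrin and named after its values were seen, averaged 1.50 CPM in DKO and had 17.4, 2.42 and 32.6 CPM in WT 1, 2 and 3, with WT 2 lowest as it was for Gm17660 (log2 fold change -3.54, SE 0.85, edgeR adjusted p = 0.101).

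Of 29 regulators of the maturation stage edgeR called 0 higher and 1 lower, with 9 at an unadjusted p below 0.05 and 1 called by DESeq2. The median log2 fold change of the list was 0.00, with 15 above 0 and 14 below. Runx2, which encodes one of the factors that bind the RUNX core, averaged 257 ± 23.8 CPM in DKO and 243 ± 24.1 CPM in WT (named after its values were seen; edgeR adjusted p = 0.731). Tgfb1 averaged 487 ± 46.2 CPM in DKO and 441 ± 48.9 CPM in WT, Dlx3 averaged 400 ± 40.0 CPM in DKO and 325 ± 28.0 CPM in WT, and Foxo1 averaged 299 ± 15.1 CPM in DKO and 400 ± 96.0 CPM in WT, with edgeR adjusted p of 0.565, 0.217 and 0.235.

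**Figure D5:**
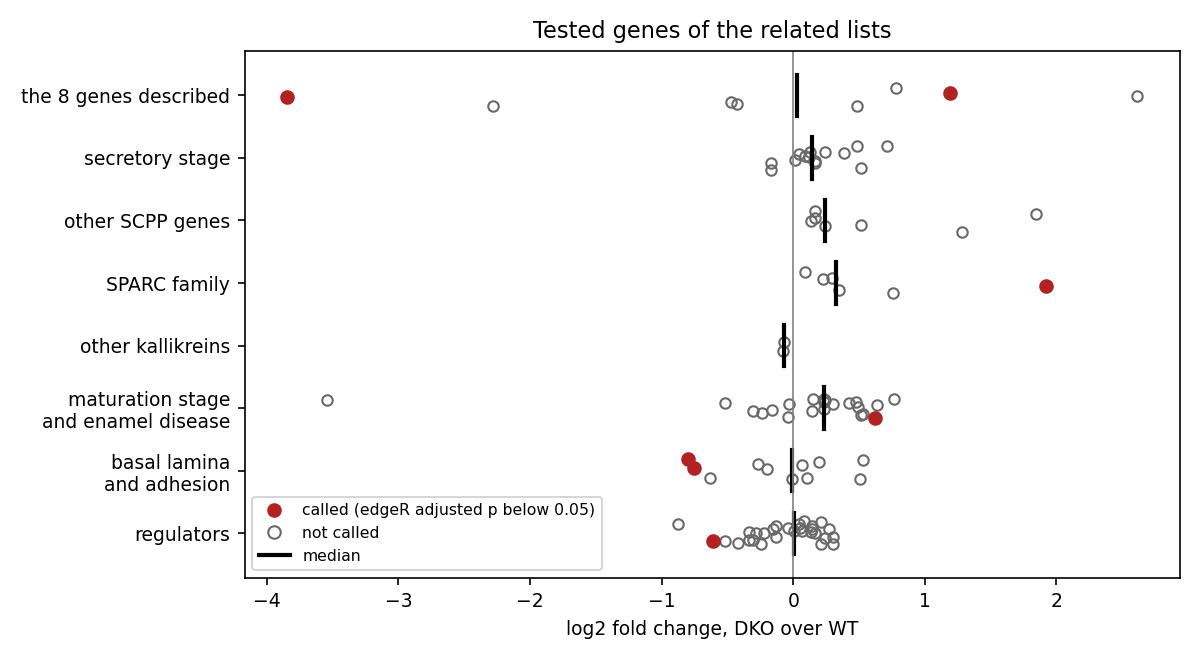
The horizontal axis is the log2 fold change of DKO over WT; each circle is 1 tested gene, filled where edgeR's adjusted p was below 0.05, and the black line is the list's median. The 8 genes spread from -3.85 to 2.61 with a median of 0.03, and the medians of the other lists lie between -0.07 and 0.32. Single genes of those lists also lie far from 0, such as Slc26a4 at -3.54 and Smoc1 at 1.92. Of the maturation-stage list 22 of 23 genes are drawn.

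For each of the 8 genes the most similar patterns were sought among 11812 other protein-coding genes (11813 for RP23-102H7.9), by the root mean square difference between log2 CPM values after each gene's mean over the 6 libraries was subtracted. Amtn was most like Calb1, for the calcium-binding protein calbindin, at 0.05 log2 units, ahead of Sh3bp5 and Emb. Calb1 averaged 5125 CPM in DKO and 3082 CPM in WT. Odam was most like Foxo1, also at 0.05, then Ntrk2 and Trim29. Klk4 was most like Fndc5 (0.05), Smad9 and Nabp1, and Gm1045 was most like Spsb4 (0.06), Chrna5 and Slc52a3. Sparcl1 was most like Cenpc1 (0.04), Krt14 and Zfp964, and Krt14, the keratin of basal epithelial cells, averaged 2956 CPM in DKO and 4084 CPM in WT. The genes with the larger differences had less close matches: Pgm5 at 0.21, Rgma and Vit for Gm17660, 1810011O10Rik at 0.41, Lrat and Abca13 for Csn3, and Kcnmb2 at 0.58, Bglap2 and Flt3l for RP23-102H7.9. None of the 7 protein-coding genes of the set was among the closest 3 matches of another; RP23-102H7.9, which is not protein-coding, was no candidate.

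Neighbours in the genome were mostly silent, and none outside the set was called. The nearest genes on either side of Klk4, Odam, Amtn and Csn3 outside the set that were in the count tables had at most 74 counts over all 6 libraries. The highest of these was BC037156, a noncoding RNA between Odam and Csn3, at 0.138 CPM in DKO and 0.948 CPM in WT, too low to be tested. On the far side of Gm17660, Nudt9 averaged 79.7 CPM in DKO and 90.9 CPM in WT, with a log2 fold change of -0.19 with an SE of 0.09 (edgeR adjusted p = 0.314). Gm26703, on the opposite strand at Sparcl1, averaged 3.53 CPM in DKO and 6.00 CPM in WT (log2 fold change -0.77, SE 0.26, edgeR adjusted p = 0.194); the library kit does not mark strand, so its reads and those of Sparcl1 cannot be told apart where they overlap. Dspp, the next gene beyond it, had a log2 fold change of 0.16 with an SE of 1.18. Beside Gm1045, Cdkl2 had a log2 fold change of -0.28 with an SE of 0.12 (edgeR adjusted p = 0.260) and Thap6 one of 0.22 (SE 0.09, edgeR adjusted p = 0.277).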

How the data were processed

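RNA of enamel organ cells was read in 3 DKO and 3 WT libraries. The authors deposited raw counts for each Ensembl gene and, as Cufflinks tables by their file headers, FPKM values for each gene. The submitters' processing notes list the build GRCm38 and the tools Trimmomatic 0.32, Cufflinks 2.2 and HTSeq with no role, and how reads were counted is not given in the sources used here. Genes were matched through the symbols of the FPKM tables, of which 9 genes had a failed estimate, none of them among the 8. Positions are 1-based and come, with exons, from GENCODE vM21 on GRCm38, which may not be the authors' release. Promoters are RefSeq's, found for 5 of the 8 genes.

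The comparison of DKO over WT used the deposited counts in edgeR 4.0.16 (R 4.3.3): TMM factors, filterByExpr, the quasi-likelihood F test, no covariate. A call is a Benjamini-Hochberg adjusted p below 0.05 over 14721 genes. CPM values use the TMM scaling, and a log2 value or fold change is from that fit unless another is named. Differences within libraries of high or of low Xist are log2 ratios of mean CPM. A difference stated as so many fold is a ratio of mean CPM. With total counts of 18609759 to 22829411, counting error is small for abundant genes, for which 3 libraries per group set the precision. It is larger at low counts, such as the 49, 29 and 34 of RP23-102H7.9 in DKO 1, 3 and 4. Reads carry no molecular identifiers and are not independent molecules. Alternatives were 4 other scalings, other filters, DESeq2 1.42.0, limma 3.58.1 on the deposited FPKM as log2(FPKM + 1) or log2(FPKM + 0.1), a replicate block, a term for Xist above 100 CPM and leaving out each library.

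The members, the lists and the rules were chosen with earlier results of these data known. The rule names the 8 genes, Stim1, Stim2, every called gene of the related lists with up to 3 further genes of the highest mean CPM in each, the 3 most similar genes with a mean of at least 50 counts, and 2 annotated neighbours on each side. Some genes that this rule selects are not reported here. Lists held other SCPP genes, the SPARC family, other kallikreins, secretory-stage genes, maturation-stage transport and enamel disease, the basal lamina and its adhesion partners, and regulators; markers covered the cell types of an enamel organ dissection. The 8 genes were removed from every list. No protein sequences were used here.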

Additional observations from a re-analysis of the deposited data

How the results depend on the processing

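The direction of each of the 8 log2 fold changes was kept in all 18 alternatives. Leaving out 1 library gave 0.36 to 0.65 for Klk4, -0.57 to -0.27 for Odam, 0.65 to 1.01 for Amtn, 1.06 to 1.31 for Gm1045, -2.70 to -1.80 for Gm17660, -4.06 to -3.61 for RP23-102H7.9, 1.87 to 2.92 for Csn3 and -0.50 to -0.31 for Sparcl1. RP23-102H7.9 was -2.98 with limma on log2(FPKM + 1), filtered or not, where the pseudocount is near its DKO level. The scalings moved the median of all genes by -0.05 to 0.02.

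How many genes passed depended more on the method. Genes called were 153 of 14721 fitted (108 higher, 45 lower), against 554 of 25264 with no filter on low counts and 826 of 25264 with DESeq2. limma on log2(FPKM + 1) or log2(FPKM + 0.1) called 77 of 13336, and limma with no filter 11 of 25953. With the Xist term 71 of 14721 were called. With 1 library left out, the number ran from 21 of 15022 (without DKO 4) to 335 of 15046 (without WT 2). Genes of the 7 related lists called were 5, against 14 with no filter, 15 with DESeq2, 2 in either filtered limma fit, 2 with the Xist term, and 0 (without DKO 4, 27 at an unadjusted p below 0.05) to 11 (without WT 2). limma with no filter called 0 of them, with 25 at an unadjusted p below 0.05. Of the 8 genes, 2 were called, against 0 (limma, no filter) to 6 (DESeq2), and 1 to 4 with 1 library left out. The causes were not tested.

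DKO and WT share replicate numbers 1 and 3, but the labels do not say that a number links libraries, and deviations of same-numbered libraries correlated at 0.189 and 0.000100 across genes. A replicate block, with 1 residual degree of freedom, gave 328 genes called, 10 of the related lists and 3 of the 8.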

Other observations

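Other cell types of the dissection were also measured, and the genes named here were chosen after their values were seen. Leukocyte markers summed to 287 to 431 CPM in DKO and 203 to 292 CPM in WT, with all 11 above 0 in log2 fold change and a median of 0.39, but edgeR called 0 of them, with 5 at an unadjusted p below 0.05 and 2 called by DESeq2. Mesenchyme markers summed to 10870 to 13762 CPM in DKO and 7024 to 11666 CPM in WT, with all 10 above 0, a median of 0.33 and 0 called by edgeR or DESeq2, and 0 at an unadjusted p below 0.05. Markers of the stratum intermedium and papillary layer, the layers behind the ameloblasts, summed to 6254 to 7604 CPM in DKO and 5594 to 7186 CPM in WT. Of the 11, 7 lay below 0, with a median of -0.35. An unadjusted p below 0.05 was reached by 8, and DESeq2 called 4. Without overlap 6 were lower in DKO (Notch1, Notch2, Jag1, Hes1, Nrarp and Lrp11), beside 11.8% of all genes tested. The 1 called by edgeR, the gap junction gene Gjb2, was higher. Gjb2 had 22.3, 40.6 and 34.1 CPM in DKO 1, 3 and 4, against 10.3, 7.27 and 13.2 CPM in WT 1, 2 and 3 (log2 fold change 1.65, SE 0.27, edgeR adjusted p = 0.0432). The call was lost in 4 of the 6 fits that left out 1 library, those without DKO 3, DKO 4, WT 1 and WT 3, at 0.0691 to 0.152.

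Markers of odontoblasts and osteoblasts, which include 4 tested SCPP genes, summed to 177 to 404 CPM in DKO and 145 to 246 CPM in WT. Of the 8 tested, 5 lay above 0 in log2 fold change, and the median was 0.15. The 1 called by edgeR was Bglap2, for osteocalcin, while 4 had an unadjusted p below 0.05 and DESeq2 called 2. Bglap2 fell to 2.61, 1.99 and 3.91 CPM in DKO 1, 3 and 4, against 20.9, 15.5 and 20.8 CPM in WT 1, 2 and 3 (log2 fold change -2.75, SE 0.25, edgeR adjusted p = 0.00744), a call kept in every fit without 1 library. Bglap, on the same list, was also lower in DKO, at -1.81, but edgeR did not call it (adjusted p = 0.192). Plvap, of fenestrated endothelium, rose to 51.3, 52.5 and 47.6 CPM in DKO 1, 3 and 4, against 37.8, 29.2 and 32.0 CPM in WT 1, 2 and 3 (log2 fold change 0.61, SE 0.11, edgeR adjusted p = 0.0475), a call that ended without any 1 library except WT 1 (adjusted p of 0.0521 to 0.151). Markers of red blood cells, skeletal muscle and nerve overlapped between the groups in their sums, at 134 to 392, 59.5 to 182 and 172 to 206 CPM in DKO and 140 to 435, 82.3 to 375 and 192 to 218 CPM in WT.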
